A study of Mus musculus with 17 samples.

Results

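Ly6C+ monocytes were compared between CD11c.DTR mice given diphtheria toxin (DT) and CD11c.DTR mice given PBS, on the 6 of the 17 Affymetrix MoGene 2.0 arrays whose titles give DT LY6C+ or PBS LY6C+ and an array name that begins with JS. CD11c.DTR mice carry the DT receptor, fused to green fluorescent protein, under the promoter of *Itgax*, the gene of CD11c, so that DT removes CD11c+ cells such as dendritic cells (DCs). The transgene is present in both groups. The study used heterozygous and homozygous mice and does not state the zygosity of either array group. There were 3 arrays of DT-Ly6C+ and 3 of PBS-Ly6C+ monocytes. The cells came from collagenase-digested spleens of C57BL/6 background mice 8 to 12 weeks old, 48 h after the injection, and per the study's methods were sorted as lineage-negative, CD11b+, CD115high and Ly6Chigh. The study used individual mice or pools, and the labels do not say which, so p-values measure the spread between these arrays, which may be technical. The 3 arrays of Flt3L and G-CSF induced spleen monocytes with the same prefix entered only the estimate of the spread. Their titles name Flt3L and G-CSF, whereas the study describes C57BL/6 mice given G-CSF under the skin. Per the study those cells were sorted as lineage-negative, CD11b+ and Ly6C+, and the mice were also 8 to 12 weeks old. A further 8 arrays are named G32. Of these, 1 DT-Ly6C+ and 1 PBS-Ly6C+ array have the same treatments, tissue and age as the groups above. Another 3 arrays hold common monocyte progenitors (cMoPs) from the bone marrow of untreated C57BL/6 mice. The other 3 are titled PBS-injected Ly6C- monocytes, which per the study were sorted from spleens of C57BL/6 mice. They served only to estimate the spread in the fits that used the G32 arrays.

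Monocytes arise in the bone marrow from progenitors such as the cMoP, which still divides, carries the stem cell factor receptor *Kit* and makes the proteases and peroxidase of the primary granules. On leaving that state the cell stops dividing, turns these genes down and takes on the receptors of a circulating phagocyte. Classical Ly6C+ monocytes carry the chemokine receptor CCR2 and enter inflamed tissue, whereas Ly6C- monocytes stay in the vessels and depend on the nuclear receptor NR4A1. Neutrophils arise from a closely related progenitor and also carry CD11b, but are distinguished by Ly6G and by the proteins of their later granules.

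The deposited values are log2 levels made with RMA, and 22180 genes were compared, each through 1 probe set. A gene is said to have risen or fallen where its limma test between the DT and PBS arrays, adjusted over all genes, had a p under 0.05. By this rule 2279 genes rose, which is 10.3% of all genes, and 2404 fell, which is 10.8%. The difference was over 1 on the log2 scale in 805 of the rises (3.63% of all genes) and in 1106 of the falls (4.99%). The median difference over all genes was 0.02. No DT array overlapped a PBS array in 2265 of the rises and 2388 of the falls, whereas among all genes every DT array lay above every PBS array in 18.5% and below in 16.9%.

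**Figure D1:**
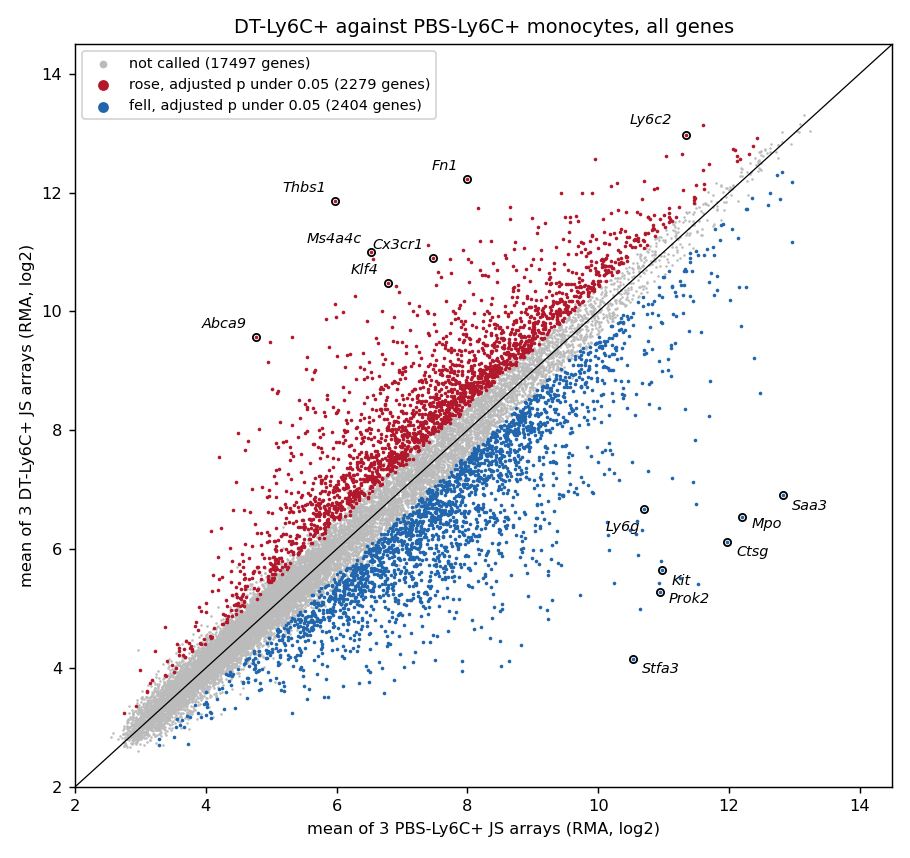
Mean log2 level of each of 22180 genes on the 3 DT-Ly6C+ JS arrays (vertical) against the 3 PBS-Ly6C+ JS arrays (horizontal), with the line of equal levels. Red points are the 2279 genes that rose and blue points the 2404 that fell. *Thbs1* and *Abca9* lie farthest above the line among the labeled rises and *Stfa3* farthest below it.

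The arrays were alike within each group. Pearson correlations over all genes lay between 0.987 and 0.988 among the DT arrays and between 0.983 and 0.985 among the PBS arrays, and between 0.937 and 0.94 across the groups. The G32 PBS array correlated with the JS DT arrays at 0.974 to 0.976 and with the JS PBS arrays at 0.918 to 0.923. It therefore resembled the DT-Ly6C+ arrays of this comparison more than the arrays of its own label. The cMoP arrays correlated with the JS PBS arrays at 0.932 to 0.94 and with the JS DT arrays at 0.897 to 0.904.

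The labeled cell type was checked against its markers first. Of 19 measured markers of classical Ly6C+ monocytes, 18 were higher on the DT arrays and 0 were lower. Their mean level was 11.34 to 11.40 on the DT and 8.98 to 9.14 on the PBS arrays, and 11.45 and 11.36 on the DT and PBS arrays named G32. *Itgam*, which encodes the CD11b of the sort gate, was the one marker that did not pass, at 11.20 ± 0.04 on the DT and 10.93 ± 0.04 on the PBS arrays (log2 difference 0.27, adjusted p = 0.151). *Itgam* was at 6.79 ± 0.11 in cMoPs. *Csf1r*, which encodes the sort marker CD115, had levels of 11.52, 11.70 and 11.54 on the DT arrays and 9.52, 9.50 and 9.47 on the PBS arrays. The PBS arrays thus held the CD11b transcript at nearly the level of the DT arrays and the CD115 transcript at a lower one.

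The arrays labeled PBS-Ly6C+ also held RNA that the sort gate does not select for. The mean level of 21 stem and progenitor genes was 8.21 to 8.29 on the PBS arrays, 5.82 to 5.88 on the DT arrays, and 5.83 and 5.79 on the DT and PBS G32 arrays. For 12 primary granule genes the range was 9.18 to 9.32 on the PBS and 6.29 to 6.45 on the DT arrays, and cMoPs stood at 9.59. For 27 neutrophil genes it was 10.35 to 10.40 on the PBS and 8.20 to 8.38 on the DT arrays, against 7.46 and 7.11 on the DT and PBS G32 arrays and 6.22 in cMoPs. These lists were thus higher on each JS PBS array than on any other DT or PBS Ly6C+ array. The neutrophil genes were also higher on the JS DT arrays than on either G32 array. In such sorted populations, fewer cells of a type and less RNA per cell cannot be told apart, and a gene of one cell type can read lower because RNA of another takes a larger share. The part of such RNA in the results below was not tested. The levels on the G32 arrays and in cMoPs are given for some of the leading genes.

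**Figure D2:**
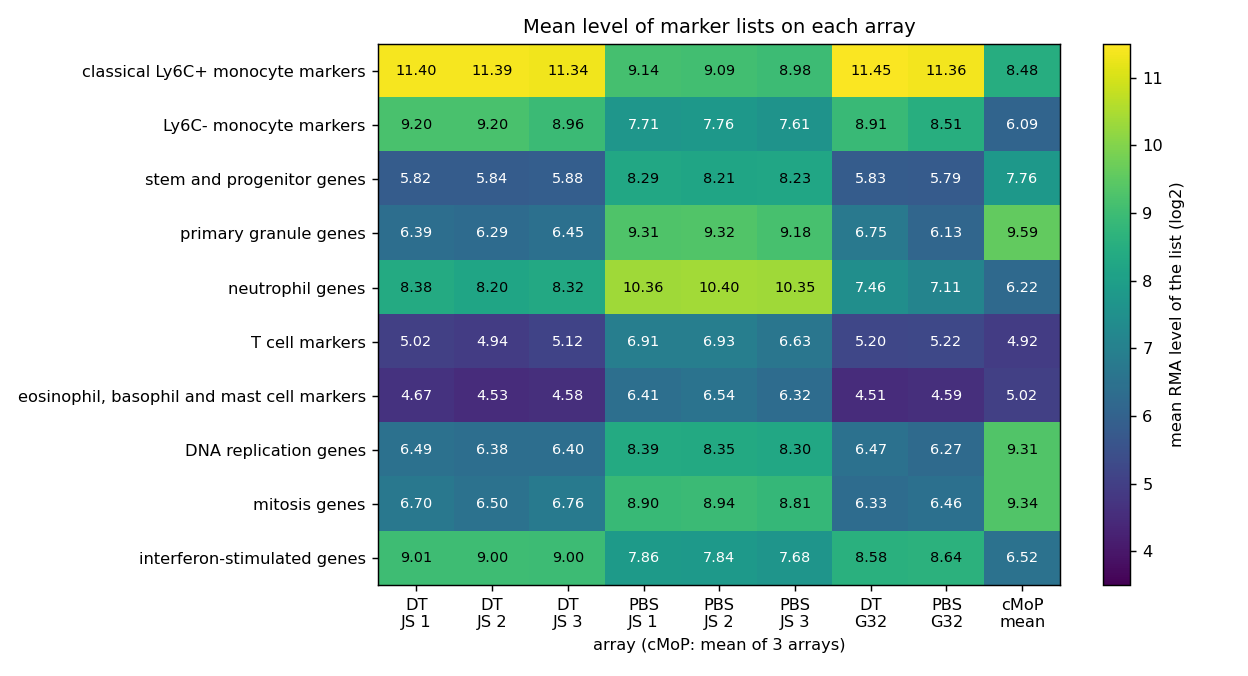
Mean log2 level of 10 gene lists (rows) on each array (columns), with cMoPs as the mean of 3 arrays. The 3 JS PBS columns are low for the 2 monocyte lists and high for the stem and progenitor, granule, neutrophil, T cell and cell division lists, while the G32 PBS column resembles the DT columns.

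To sort the differences without using the JS values, cMoPs were compared with Ly6C+ monocytes on the G32 arrays, which share no array with the DT against PBS comparison. In that test 12.1% of all genes were higher in cMoPs and 10% were lower. Of the 2404 genes that fell, 1442 (60%) were higher in cMoPs, 108 were lower and 854 (35.5%) did not pass. Of the 2279 genes that rose, 1114 (48.9%) were lower in cMoPs, 20 were higher and 1145 (50.2%) did not pass. With Ly6C+ monocytes taken as the G32 DT array alone, 44.8% of the falls were higher (6.76% of all genes) and 36.1% of the rises lower in cMoPs (5.96% of all genes). *Xist* was at 4.93 in cMoPs and between 11.05 and 11.21 on the 6 JS arrays, so the cMoP mice also differed in sex, which the DT and PBS groups did not.

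**Figure D3:**
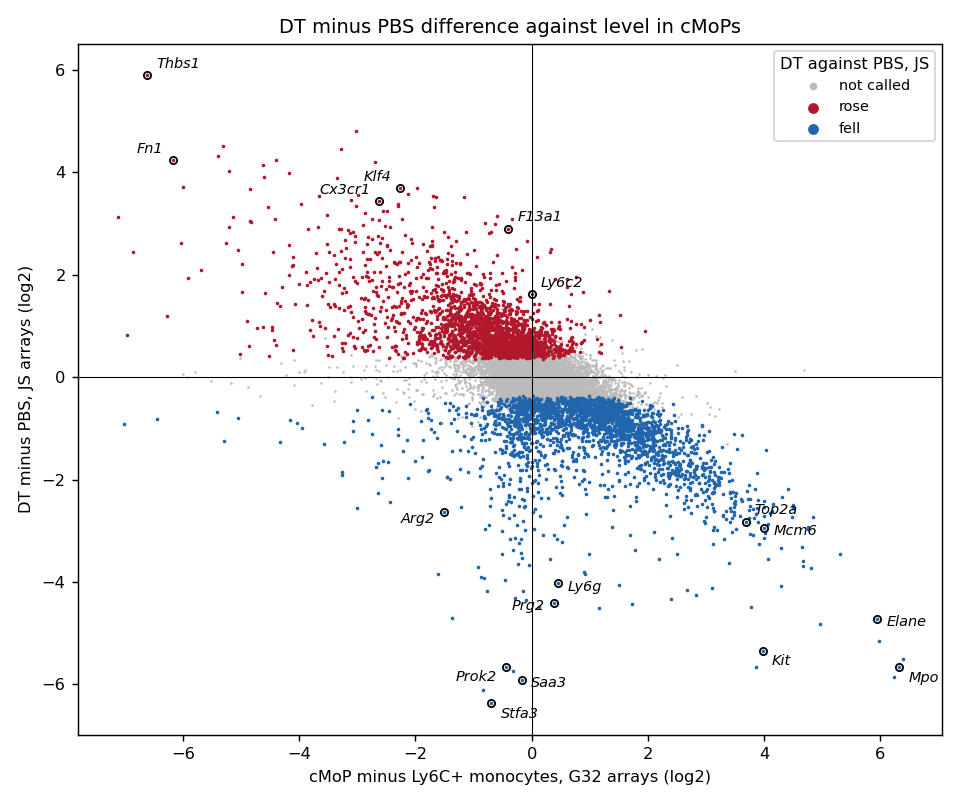
DT minus PBS difference of each gene on the JS arrays (vertical, log2) against its difference between cMoPs and Ly6C+ monocytes on the G32 arrays (horizontal, log2). Falls form an arm to the lower right, where *Mpo*, *Elane* and *Mcm6* lie, and a vertical arm near 0, where the neutrophil genes *Prok2* and *Ly6g* lie.

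Several monocyte markers rose by over 3 on the log2 scale. *Klf4*, a transcription factor needed for monocyte differentiation, had log2 levels of 10.59, 10.43 and 10.41 on the DT arrays and 6.63, 7.03 and 6.67 on the PBS arrays, with no overlap. Its rise was 3.70 (standard error 0.16, adjusted p = 4.76e-08). *Cx3cr1*, the fractalkine receptor of monocytes, had levels of 10.75, 10.96 and 10.99 on the DT arrays and 7.85, 7.20 and 7.35 on the PBS arrays and rose by 3.43 (standard error 0.19, adjusted p = 2.28e-07). Both genes were also low in cMoPs, at 8.32 ± 0.07 and 8.08 ± 0.17, and on the PBS arrays they were lower still. On the G32 PBS array *Klf4* was at 10.69 and *Cx3cr1* at 10.86, which are the levels of the DT arrays.

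The largest rise of all belonged to *Thbs1*, the gene of the adhesive matrix protein thrombospondin 1. It had levels of 11.88, 11.98 and 11.74 on the DT arrays and 5.64, 6.66 and 5.61 on the PBS arrays, a rise of 5.89 (standard error 0.25, adjusted p = 4.16e-08). *Fn1*, which encodes fibronectin, had levels of 12.22, 12.21 and 12.25 on the DT arrays and 8.13, 7.86 and 7.99 on the PBS arrays and rose by 4.24 (standard error 0.13, adjusted p = 5.26e-09). Secreted and surface proteins of matrix and clotting rose as a group, in 10 of 19 measured genes, while 3 fell. *Thbd*, the thrombomodulin that redirects thrombin to anticoagulant work, rose by 3.51, *F13a1*, the A chain of the clot-linking factor XIII, by 2.90, *Vcan*, the proteoglycan versican, by 2.44, and *Plaur*, the urokinase receptor, by 1.39. *Mmp19*, a matrix metalloproteinase, fell by 1.09.

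**Figure D4:**
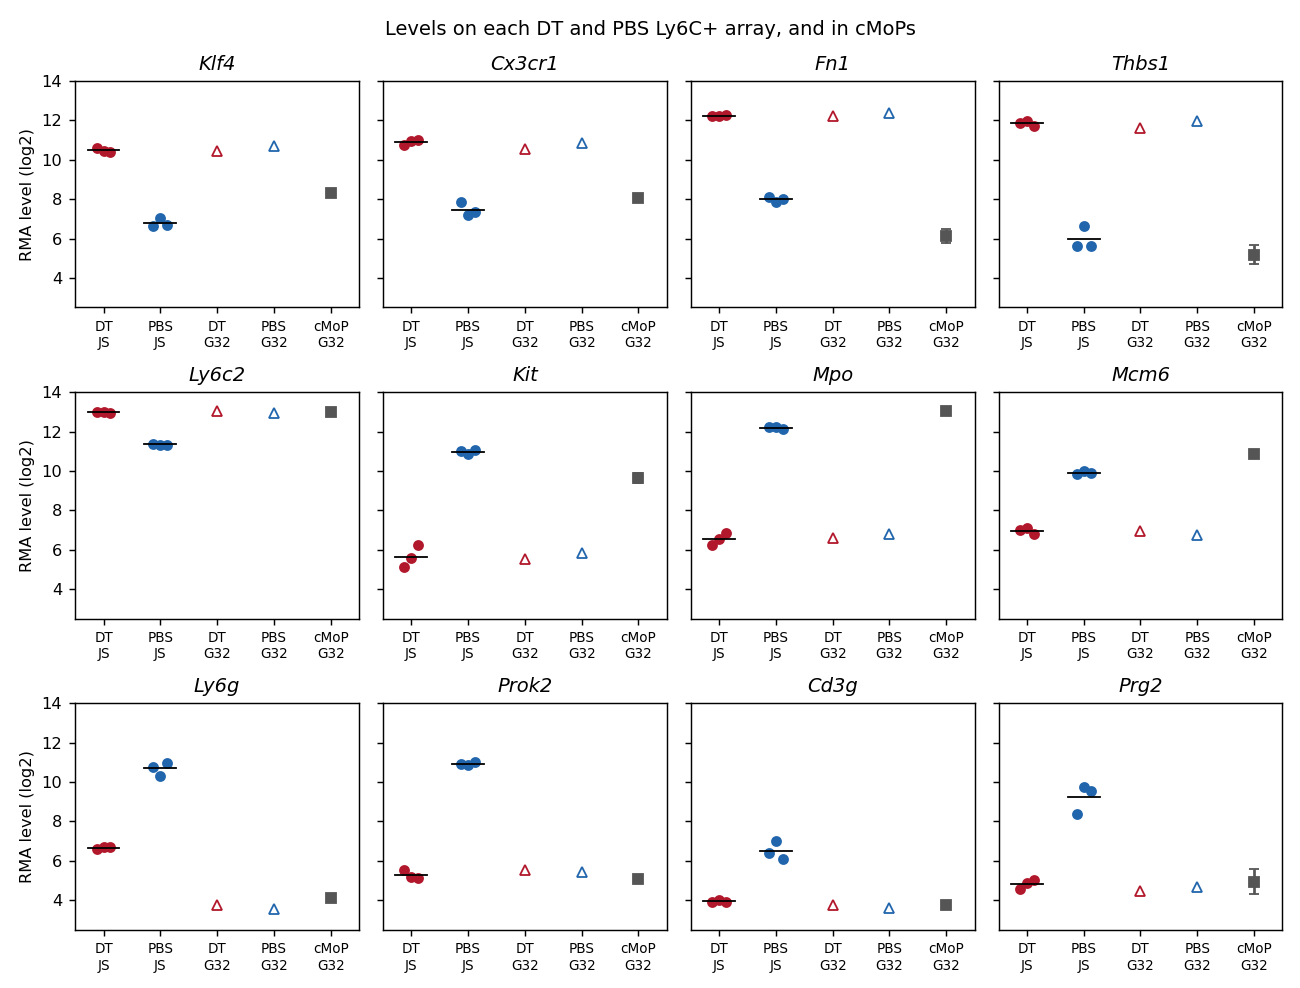
Log2 RMA level of 12 genes on each DT-Ly6C+ (red) and PBS-Ly6C+ (blue) array. Filled circles are the 3 JS arrays with their mean as a line, open triangles the single G32 arrays, and grey squares the mean and SD of 3 cMoP arrays. In 11 of the 12 genes the G32 PBS array lies with the JS DT arrays, and *Ly6g* is lower on both G32 arrays than on any JS array.

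Next after *Thbs1* came *Abca9*, an ABC transporter, which rose by 4.80 (standard error 0.15, adjusted p = 6.12e-09) from 9.56 ± 0.08 on the DT and 4.76 ± 0.13 on the PBS arrays. *Ms4a4a*, *Ms4a4c* and *Ms4a8a*, tetraspanning membrane proteins of one gene family, rose by 4.52, 4.46 and 4.14. *Ace*, the angiotensin-converting enzyme, rose by 4.31, *Msr1*, a scavenger receptor for modified lipoproteins, by 4.04, *Cyp27a1*, a sterol hydroxylase, by 3.89, and *Adgre4*, an adhesion receptor of monocytes, by 3.71. *Nxpe4*, *Arhgef37*, *Pid1* and *Plcb1* completed the 15 largest named rises together with *Igkv9-120*, an immunoglobulin kappa variable segment. The segment varied among arrays of a group, since it was at 9.39, 7.61 and 10.46 on the DT arrays and 3.95, 3.59 and 7.31 on the PBS arrays, and on the G32 arrays at 3.01 (DT) and 8.98 (PBS). Its call was lost without DT array 3 or PBS array 2 (adjusted p = 0.0532 and 0.0514). Of 18 measured immunoglobulin variable segments 3 rose and 1 fell. Of 8 plasma cell markers 3 rose and 0 fell, among them *Jchain*, the joining chain of secreted antibody, by 1.26. On the G32 DT and PBS arrays *Jchain* was at 4.17 and 7.34, so there it was lower on the DT array. Immunoglobulin variable segments are near-copies whose signals can be shared between probe sets.

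Genes of Ly6C- monocytes rose too. Of 18 measured, 13 were higher on the DT arrays and 2, *Cd9* and *Cd300ld*, were lower (log2 differences -1.18 and -1.001). *Nr4a1* had levels of 12.56, 12.68 and 12.48 on the DT arrays and 9.99, 9.87 and 9.9999 on the PBS arrays and rose by 2.62 (standard error 0.12, adjusted p = 5.62e-08). *Fabp4* and *Cd36*, which carry and take up fatty acids, rose by 3.35 and 3.08, and *Treml4*, a receptor of Ly6C- monocytes, by 1.39. On the G32 DT and PBS arrays *Nr4a1* was at 12.28 and 12.81 and *Cd36* at 6.17 and 6.96, lower on the DT array. *Fabp4*, at 6.83 and 5.43, and *Treml4*, at 10.22 and 10.03, were higher on the G32 DT array. *Ly6c2* itself, a gene of the Ly6C antigen, had levels of 13.01, 12.98 and 12.93 on the DT arrays and 11.38, 11.32 and 11.34 on the PBS arrays and rose by 1.62 (standard error 0.11, adjusted p = 1.22e-06), so genes of both monocyte subsets were higher on the DT arrays.

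The transcription factors of monocytes mostly moved the same way, with 17 rises and 2 falls among 26 measured genes and a median difference of 0.77. *Irf4*, an interferon regulatory factor of antigen-presenting cells, rose by 2.77 (standard error 0.20, adjusted p = 1.42e-06). *Irf7*, which amplifies type I interferon, rose by 1.99, *Batf3*, a factor of cross-presenting DCs, by 1.96, *Maf* by 1.94, *Irf8*, which directs progenitors to the monocyte fate, by 1.63, and *Cebpb*, needed for Ly6C- monocyte survival, by 0.67. *Spi1*, which encodes PU.1, had 10.71 ± 0.07 on the DT and 10.53 ± 0.01 on the PBS arrays (log2 difference 0.19, adjusted p = 0.321) and *Id2* had 9.15 ± 0.10 on the DT and 9.23 ± 0.11 on the PBS arrays (adjusted p = 0.764), which did not pass. *Egr1*, an immediate early factor, fell by 1.84 (standard error 0.17, adjusted p = 1.19e-05), and *Tfec* fell by 0.95. In cMoPs *Tfec* was higher than in monocytes, at 10.61 ± 0.03, and *Egr1* was lower, at 5.89 ± 0.15. Immediate early genes as a list gave 14 rises and 3 falls among 26. *Nr4a2* and *Nr4a3*, relatives of *Nr4a1*, rose by 3.37 and 2.03 and *Atf3*, a stress-induced repressor, by 2.59, whereas *Jun* differed by -0.10 and *Zfp36* by 0.20 without passing.

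Receptors that sense microbial nucleic acid were among the clearest rises. *Tlr7*, the endosomal receptor of single-stranded RNA, had levels of 10.69, 10.77 and 10.53 on the DT arrays and 7.71, 7.37 and 7.54 on the PBS arrays and rose by 3.12 (standard error 0.14, adjusted p = 4.64e-08). It was at 10.78 and 10.41 on the G32 DT and PBS arrays and at 5.46 ± 0.92 in cMoPs. *Tlr9*, the receptor of unmethylated CpG DNA, had levels of 10.56, 10.64 and 10.51 on the DT arrays and 7.21, 7.54 and 8.04 on the PBS arrays and rose by 2.97 (standard error 0.21, adjusted p = 1.45e-06). *Tlr8* rose by 1.76, *Tlr13*, a receptor of bacterial ribosomal RNA, by 0.82, and *Unc93b1*, the chaperone that brings these receptors to the endosome, by 1.25. All of these endosomal members were thus higher on the DT arrays, and the exception was *Tlr3*, the receptor of double-stranded RNA, which differed by 0.12 (adjusted p = 0.805). Surface receptors gave a mixed picture. *Tlr2*, which senses bacterial lipoproteins, rose by 0.59, *Tlr4*, the endotoxin receptor, fell by 0.79 (standard error 0.19, adjusted p = 0.0104), and *Tlr1*, *Tlr5* and *Tlr6* did not pass (log2 differences -0.39, 0.08 and -0.10). On the G32 DT and PBS arrays *Tlr4* was at 7.69 and 6.69, so there it was higher on the DT array. *Ly96*, the MD-2 partner of TLR4, rose by 1.07, and *Cd180* with its partner *Ly86*, which modulate responses to endotoxin, rose by 2.93 and 2.98. Over the whole list of Toll-like receptor and NF-kB signaling genes, 20 of 33 rose and 1 fell, with a median of 0.60. The adaptors *Ticam2* and *Ticam1* rose by 1.95 and 0.80, whereas *Myd88* differed by -0.26 (adjusted p = 0.257).

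Cytosolic sensors and interferon-stimulated genes went with them. Of 14 nucleic acid sensing genes 11 rose and 0 fell, with a median of 1.06. *Ifi204* and *Ifi205*, of a DNA-binding family encoded as near-copies in 1 cluster, rose by 2.89 and 2.48, *Zbp1*, a sensor of Z-form nucleic acid, by 1.80, and *Ifih1*, which encodes the RNA sensor MDA5, by 1.11. *Cgas* and *Sting1*, the DNA sensor and its adaptor, differed by -0.06 and 0.33 without passing. Of 27 interferon-stimulated genes 23 rose and 0 fell, with a median of 1.24, and their mean level was 8.999 to 9.012 on the DT and 7.68 to 7.86 on the PBS arrays. *Mx2* and *Mx1*, GTPases that block viruses, rose by 2.76 (standard error 0.18, adjusted p = 6.61e-07) and 2.61, and *Usp18*, which restrains interferon signaling, by 1.85. *Ifit1*, *Ifit3*, *Oasl2* and *Igtp* did not pass (log2 differences 0.45, 0.60, 0.14 and 0.37). Of the interferon genes, *Ifnb1* differed by -0.10 (adjusted p = 0.731) without passing, whereas *Ifnk*, interferon kappa, rose by 2.67 (standard error 0.24, adjusted p = 8.49e-06), with 7.13 ± 0.05 on the DT and 4.46 ± 0.36 on the PBS arrays. On the G32 DT and PBS arrays *Mx2* was at 7.08 and 7.53, and in cMoPs at 4.66 ± 0.21. *Ifnk* was at 5.27 (DT) and 5.70 (PBS) on the G32 arrays and at 5.40 ± 0.18 in cMoPs. Neither gene was higher on the G32 DT than on the G32 PBS array.

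Cytokine and chemokine genes split. Of 23 measured cytokines 7 rose and 6 fell. *Tnf* had levels of 8.85, 8.56 and 8.36 on the DT arrays and 10.36, 10.60 and 10.22 on the PBS arrays and fell by 1.80 (standard error 0.16, adjusted p = 7.68e-06), and *Il12a*, a chain of interleukin 12, fell by 2.40, *Csf1* by 1.98 and *Il1b* by 0.91. *Il6* had levels of 6.35, 6.65 and 6.05 on the DT arrays and 4.33, 4.08 and 4.29 on the PBS arrays and rose by 2.12 (standard error 0.17, adjusted p = 3.67e-06), and *Tgfb1* rose by 0.997, *Tnfsf13b*, the B cell factor BAFF, by 0.98 and *Il18* by 0.93. Among 19 chemokines 5 rose and 4 fell. The neutrophil attractant *Cxcl2* and the monocyte attractant *Ccl2* fell by 1.85 and 1.68, whereas *Ccl9* rose by 2.03, *Cxcl10*, an interferon-induced attractant of T cells, by 1.56 and *Ccl6* by 0.97. On the G32 DT and PBS arrays *Tnf* was at 9.07 and 8.42, and in cMoPs at 7.51 ± 0.11. *Il12a* was at 5.10 and 5.33 on the G32 DT and PBS arrays and at 7.87 ± 0.48 in cMoPs. Of the 6 cytokines that fell it was the 1 that was higher in cMoPs than in monocytes. *Ccl3* differed by -0.02 and *Ccl7* by -0.33 without passing.

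Chemokine receptors split as well. *Ccr2*, the receptor by which classical monocytes leave the marrow, had levels of 11.49, 11.47 and 11.53 on the DT arrays and 9.56, 9.61 and 9.56 on the PBS arrays and rose by 1.92 (standard error 0.11, adjusted p = 3.17e-07). It was at 11.47 and 11.59 on the G32 DT and PBS arrays and at 10.30 ± 0.19 in cMoPs. *Cxcr4*, which retains cells in the marrow, rose by 0.78 and *Cmklr1*, the chemerin receptor, by 1.14. The neutrophil receptors *Cxcr2* and *Cxcr1* fell by 3.45 (standard error 0.13, adjusted p = 2.71e-08) and 3.15, the eosinophil receptor *Ccr3* by 2.54, and *Ccr1* by 2.27. In all, 5 of 15 rose and 5 fell.

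Antigen presentation and uptake leaned upward. Of 14 MHC class II presentation genes 10 rose and 1, *H2-Oa*, fell. *H2-Aa* and *H2-Ab1*, chains of the class II molecule, rose by 0.92 and 0.75, and these rises were lost without DT array 1 or PBS array 2, that of *H2-Ab1* also without DT array 2 or PBS array 3. *Ifi30* and *Ctss*, which process antigen in the endosome, rose by 2.31 and 1.88, and the costimulators *Cd40*, *Cd80* and *Cd86* by 2.14, 2.05 and 1.43. Of 13 Fc receptors and their signaling genes 8 rose and 1 fell. *Fcgr1*, which encodes CD64, had levels of 10.13, 9.94 and 9.94 on the DT arrays and 6.86, 6.48 and 6.71 on the PBS arrays and rose by 3.32 (standard error 0.14, adjusted p = 4.21e-08). It was at 10.24 and 9.80 on the G32 DT and PBS arrays and at 5.48 ± 0.39 in cMoPs. *Fcgr2b*, the inhibitory receptor, and *Fcgrt*, the neonatal receptor, rose by 1.40 and 1.55, whereas *Fcgr4* fell by 1.19 and *Fcgr3* differed by 0.27 (adjusted p = 0.159).

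C-type lectin receptors moved in both directions, with 7 rises and 5 falls among 16. *Clec4a1* and *Clec4a3*, of the dendritic cell immunoreceptor family, rose by 3.12 and 2.09, and *Clec7a*, the beta-glucan receptor dectin-1, by 0.77. *Clec5a*, *Clec4d*, *Clec4n* and *Clec4e*, activating receptors that include dectin-2 and mincle, fell by 1.84, 1.63, 1.05 and 0.85. In cMoPs *Clec5a* was higher than in monocytes, at 8.57 ± 0.30, whereas *Clec4d*, *Clec4n* and *Clec4e* were lower. Scavenger receptors gave 7 rises and 3 falls among 15, with *Msr1* and *Cd36* the largest rises and *Timd4*, *Cd163* and *Marco*, receptors of resident macrophages, the falls, of which that of *Cd163* was lost without PBS array 1. Among complement genes 2 of 14 rose and 7 fell, with *Cfb*, factor B, up by 1.94 and *C5ar1*, the C5a receptor, and *C1qb* down (log2 differences -1.27 and -1.23). On the G32 DT and PBS arrays *Cfb* was at 8.70 and 7.398, *C5ar1* at 7.88 and 6.98 and *C1qb* at 8.50 and 6.42. Each was thus higher on the G32 DT array. The count of complement falls was 3 or 4 without DT array 2, DT array 3 or PBS array 2.

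Lipid handling and lysosomes rose as groups on the JS arrays, whereas the median DT minus PBS differences of these lists on the G32 arrays were 0.254 and 0.155. Of 17 lipid efflux and fatty acid carrier genes 13 rose and 2 fell, with a median of 1.19. *Lpl*, the lipoprotein lipase, rose by 2.005, *Pltp*, a phospholipid transfer protein, by 1.97, and *Pparg*, a lipid-sensing nuclear receptor, by 1.19. *Abca1*, the cholesterol efflux pump, fell by 1.20 (standard error 0.16, adjusted p = 0.000164), and *Abcg1* differed by 0.41 (adjusted p = 0.0918). Of 14 cholesterol synthesis genes 3 rose and 1 fell. Of 26 lysosome genes 15 rose and 2 fell. The cathepsins *Ctsh*, *Ctsc* and *Ctsb* rose by 2.39, 1.32 and 0.82, and *Psap*, the precursor of sphingolipid activators, by 1.58. *Cd63* and *Ctsd* fell by 2.83 (standard error 0.22, adjusted p = 2.91e-06) and 1.21. *Cd63* was at 10.51 ± 0.13 in cMoPs.

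Growth factor and cytokine receptors rose in 13 of 19 genes and fell in 3. *Csf1r*, the receptor monocytes need to survive, rose by 2.09 (standard error 0.12, adjusted p = 3.84e-07), *Il10ra* by 2.38, *Met*, which binds hepatocyte growth factor, by 1.91, and *Ifnar1* by 0.93. The falls were *Kit*, *Csf3r*, the G-CSF receptor, and *Il4ra* (log2 differences -5.34, -1.49 and -1.42). Among 18 integrin and adhesion genes 10 rose and 4 fell. *Itgb7* and *Itga4*, which pair as a receptor for gut endothelium, rose by 2.15 and 1.25, and *Cd24a*, *Itga6* and *Pecam1* fell by 2.42, 2.08 and 1.55.

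**Figure D5:**
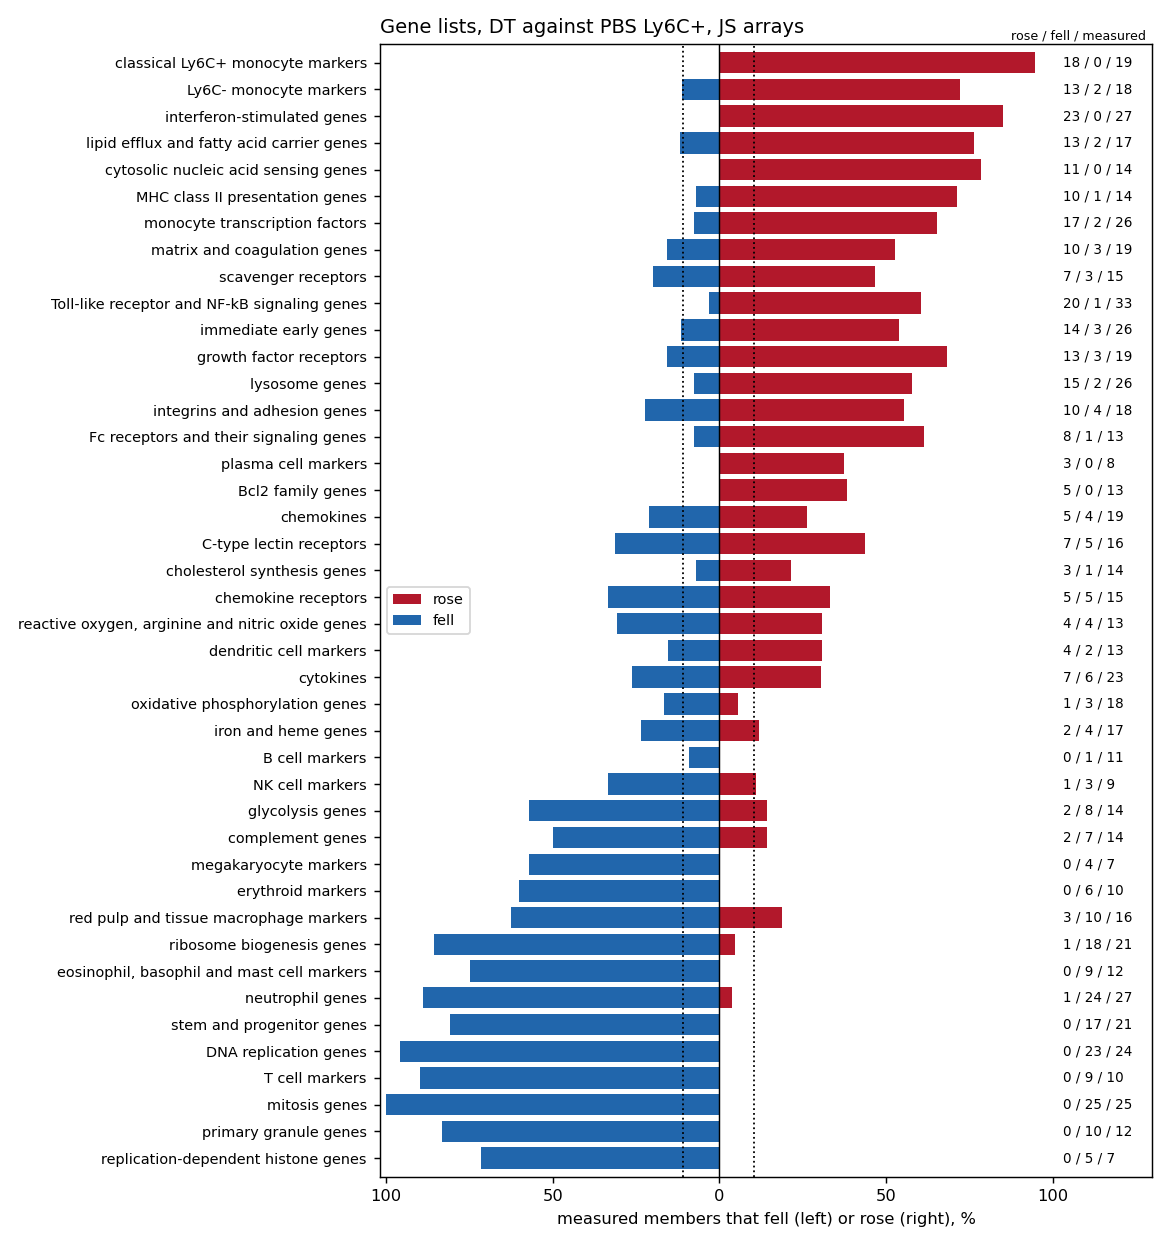
Share of measured members of 42 gene lists that rose (right, red) or fell (left, blue) on the DT against the PBS JS arrays, ordered by the list's median difference. The dotted lines mark the shares over all genes (10.3% rose, 10.8% fell), and the numbers give rises, falls and measured members. Monocyte markers rose in 18 of 19 genes, and mitosis genes fell in 25 of 25.

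Progenitor genes fell. Of 21 stem and progenitor genes 17 fell and 0 rose, with a median of -1.96. *Kit* had levels of 5.12, 5.56 and 6.24 on the DT arrays and 11.03, 10.85 and 11.05 on the PBS arrays and fell by 5.34 (standard error 0.28, adjusted p = 1.53e-07). *Myb*, a factor of immature blood cells, had levels of 5.91, 5.69 and 5.82 on the DT arrays and 11.02, 11.01 and 10.87 on the PBS arrays and fell by 5.16 (standard error 0.22, adjusted p = 3.91e-08), and *Cd34*, a surface sialomucin of progenitors, fell by 4.82. *Muc13*, *Sox4*, *Angpt1*, *Erg* and *Myc* fell by 5.65, 4.08, 3.80, 3.26 and 2.96. The PBS arrays were not merely between monocytes and cMoPs in these genes, since *Kit* was at 9.64 ± 0.27, *Angpt1* at 5.23 ± 0.31 and *Hlf* at 5.23 ± 0.27 in cMoPs and at higher levels on the PBS arrays (10.98, 7.91 and 6.17). *Flt3*, which encodes the CD135 that cMoPs lack, had 7.38 ± 0.33 on the DT and 7.39 ± 0.18 on the PBS arrays (adjusted p = 0.987).

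Primary granule genes fell in 10 of 12 cases, with a median of -2.43. *Mpo*, the myeloperoxidase, had levels of 6.25, 6.54 and 6.84 on the DT arrays and 12.23, 12.23 and 12.15 on the PBS arrays and fell by 5.66 (standard error 0.19, adjusted p = 8.86e-09). *Ctsg*, *Elane* and *Prtn3*, the serine proteases cathepsin G, neutrophil elastase and proteinase 3, fell by 5.85, 4.72 and 4.12, and *Ms4a3*, a membrane protein of granulocyte and monocyte progenitors, by 5.50. *Mpo* and *Elane* were higher in cMoPs, at 13.02 ± 0.03 and 12.63 ± 0.02, than on the PBS arrays. The exceptions were *Fcnb*, ficolin B, and *Rnase2a* (log2 differences 0.37 and 0.20, adjusted p = 0.123 and 0.665).

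Genes of cell division fell almost without exception. Of 24 DNA replication genes 23 fell, with a median of -2.07, and of 25 mitosis genes all 25 fell, with a median of -2.30. *Mcm6*, a subunit of the replicative helicase, had levels of 7.01, 7.09 and 6.79 on the DT arrays and 9.85, 9.97 and 9.90 on the PBS arrays and fell by 2.94 (standard error 0.14, adjusted p = 8.66e-08). *Rrm2*, of ribonucleotide reductase, fell by 2.78, *Cdk1*, the kinase that starts mitosis, by 3.26 (standard error 0.16, adjusted p = 7.96e-08), *Top2a* by 2.82, *Plk1*, the polo kinase, by 2.73, *Ube2c*, which tags mitotic cyclins for destruction, by 2.52, and *Mki67* by 1.90. The falls of *Pcna* (0.41) and *Cenpa* (0.42) were lost on leaving out any single array, and *E2f1* did not pass (log2 difference -0.21). Of 7 measured replication-dependent histone genes 5 fell, by up to 2.96 for *H2bc12*. Cell division genes were also high in cMoPs, where the mean level of the mitosis list was 9.34, against 8.81 to 8.94 on the PBS and 6.50 to 6.76 on the DT arrays.

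Since these genes fell together, their promoters were read from RefSeq sequence (GRCm38.p6), 250 bases before to 50 after the start. The E2F motif was searched as TTTGGCGC, TTTCCCGC, TTTCGCGC or TTTGCCGC and the cell cycle homology region (CHR) as TTTGAA, both on either strand. An E2F motif was present in 9 of 20 replication genes with a promoter in the table (45.0%), in 1 of 21 mitosis genes (4.76%) and in 3.26% of 16990 measured genes. A CHR was present in 16 of 21 mitosis genes (76.2%), in 3 of 20 replication genes (15%) and in 17.8% of all. A match describes the letters only. A stretch before the start is shown for *Mcm6*, with the E2F motif in capitals, and for *Cdk1* and *Ube2c*, with the CHR in capitals (in *Ube2c* on the other strand), since these 3 genes stand for the replication and mitosis lists.
Mcm6 (chr1:128359719-128359778, minus strand): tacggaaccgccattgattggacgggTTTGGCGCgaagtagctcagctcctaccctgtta
Cdk1 (chr10:69352913-69352972, minus strand): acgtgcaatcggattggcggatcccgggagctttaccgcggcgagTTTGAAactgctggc
Ube2c (chr2:164769869-164769928, plus strand): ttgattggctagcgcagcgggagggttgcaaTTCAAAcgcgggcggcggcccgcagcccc

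Ribosome and energy genes followed in part. Of 21 ribosome biogenesis genes 18 fell and 1 rose, with *Gnl3*, nucleostemin, falling by 2.54 (standard error 0.12, adjusted p = 8.66e-08), and *Dkc1* and *Nop58*, of the small nucleolar particles, by 2.27 and 2.12. Of 14 glycolysis genes 8 fell and 2 rose. *Slc2a3*, a glucose transporter, fell by 2.32 and *Tpi1* by 1.02. Of 18 oxidative phosphorylation genes 3 fell and 1 rose, near the share over all genes. Thus the falls reached far into the machinery of ribosome assembly and little into that of respiration. *Tfrc*, the transferrin receptor of dividing cells, fell by 2.26, and *Slc40a1*, the iron exporter ferroportin of red pulp macrophages, by 3.91 (standard error 0.25, adjusted p = 5.83e-07).

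Neutrophil genes fell as well, and few of them were high in cMoPs. Of 27 measured, 24 fell and 1 rose, with a median of -1.49, and 1 of the falls was higher in cMoPs than in monocytes. That gene was *Mrgpra2a*, which encodes a receptor coupled to G proteins, and which fell by 4.33 and was at 8.89 ± 0.05 in cMoPs. *Ly6g*, which encodes the defining surface antigen, had levels of 6.598, 6.70 and 6.71 on the DT arrays and 10.78, 10.32 and 10.99 on the PBS arrays and fell by 4.03 (standard error 0.16, adjusted p = 3.48e-08). It was at 4.13 ± 0.10 in cMoPs and at 3.78 and 3.56 on the G32 DT and PBS arrays. The DT arrays therefore held *Ly6g* above both G32 arrays, though far below the PBS arrays. *Prok2*, a prokineticin of neutrophils, had levels of 5.54, 5.19 and 5.11 on the DT arrays and 10.91, 10.87 and 11.02 on the PBS arrays and fell by 5.66 (standard error 0.17, adjusted p = 5.26e-09). *Steap4*, a metalloreductase, *Chil1*, a chitinase-like lectin, and *Mmp9*, a gelatinase, fell by 5.74, 4.32 and 3.65. The secondary granule genes fell less, *Lcn2* by 1.74, *Ltf*, lactoferrin, by 0.85 and *Ngp* by 0.65. *Camp*, the cathelicidin, had 10.24 ± 0.18 on the DT and 9.70 ± 0.14 on the PBS arrays and rose by 0.53, a call lost without DT array 1 or PBS array 3, and *Cd177* differed by -0.005. *S100a8* and *S100a9*, which monocytes also express, fell by 0.47 and 0.89, the first call being lost without DT array 2.

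The 2 largest falls of all, *Stfa3* and *Stfa1*, belong to the stefin A cysteine protease inhibitors. *Stfa3* had levels of 3.98, 3.68 and 4.81 on the DT arrays and 10.60, 10.65 and 10.34 on the PBS arrays and fell by 6.37 (standard error 0.25, adjusted p = 2.72e-08), and *Stfa1* fell by 6.11. Of 10 measured genes of the stefin A and Cstdc cluster 7 fell and 0 rose, with a mean level of 7.95 to 8.02 on the PBS and 4.83 to 5.14 on the DT arrays. These genes are near-copies, so probes may share signal. *Saa3*, an acute phase protein, had levels of 7.55, 6.88 and 6.29 on the DT arrays and 12.78, 12.88 and 12.80 on the PBS arrays and fell by 5.92 (standard error 0.44, adjusted p = 1.82e-06). *Cstdc4*, of the stefin A and Cstdc cluster, fell by 4.70, *Ctla2a* by 4.43 and *Asprv1* by 4.35. *Stfa3* and *Cstdc4* were lower in cMoPs than in monocytes, and *Stfa1*, *Saa3*, *Ctla2a* and *Asprv1* did not pass that test. *Arg2*, arginase 2, and the chemokine receptor *Ccr1* likewise fell and were lower in cMoPs, at 5.55 ± 0.17 and 4.87 ± 0.48, against 6.95 and 7.20 on the G32 PBS array.

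Markers of further blood cell types were also higher on the PBS arrays. Of 10 T cell markers 9 fell and 0 rose, with mean levels of 6.63 to 6.93 on the PBS and 4.94 to 5.12 on the DT arrays. *Cd3g* had levels of 3.89, 4.02 and 3.90 on the DT arrays and 6.39, 7.02 and 6.11 on the PBS arrays and fell by 2.57 (standard error 0.22, adjusted p = 4.74e-06), and *Il7r* and *Thy1* fell by 2.69 and 2.64. Of 12 eosinophil, basophil and mast cell markers 9 fell. *Prg2*, the eosinophil major basic protein, had levels of 4.58, 4.89 and 5.001 on the DT arrays and 8.39, 9.77 and 9.55 on the PBS arrays and fell by 4.41 (standard error 0.29, adjusted p = 7.61e-07), so that PBS array 1 was the lowest of the PBS arrays and still above every DT array. *Cpa3*, the mast cell carboxypeptidase, and *Mcpt8*, a basophil protease, fell by 4.51 and 3.09. *Mcpt8* was at 9.20 ± 0.36 in cMoPs and *Cpa3* at 5.25 ± 0.36.

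Of 10 erythroid markers 6 fell, with *Car2* and *Car1*, carbonic anhydrases, falling by 4.05 and 3.37, whereas the defining factor *Klf1* differed by -0.29 (adjusted p = 0.4). Of 7 megakaryocyte markers 4 fell, with *Pf4*, platelet factor 4, falling by 3.54 (standard error 0.26, adjusted p = 1.57e-06). B cell markers moved little, with 1 fall among 11, *Ms4a1* by 1.21, and *Cd79a* at 5.24 ± 0.18 on the DT and 5.54 ± 0.26 on the PBS arrays. Of 9 NK cell markers 3 fell and 1 rose, and the falls dropped to 1, *Klrd1* (1.78), on leaving out all but one of the arrays in turn. The rise, *Klrk1*, by 0.56, was lost on leaving out any single array. Of 13 DC markers 4 rose and 2 fell. *Xcr1* and *Zbtb46*, which define classical DCs, differed by -0.02 and 0.17 and stood between 5.10 and 5.70 in both groups, whereas *Siglech*, of plasmacytoid DCs, fell by 1.19.

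Of 16 macrophage markers 10 fell and 3 rose. *Vcam1* and *Cd5l*, which resident macrophages of the spleen express, fell by 2.37 and 2.42. *Siglec1*, the sialoadhesin CD169 that interferon induces on monocytes, had levels of 9.26, 9.06 and 8.71 on the DT arrays and 5.97, 5.32 and 5.71 on the PBS arrays and rose by 3.34 (standard error 0.24, adjusted p = 1.58e-06), *Adgre1*, a surface antigen of macrophages and monocytes, rose by 1.31, and *Axl*, a receptor for dying cells, by 1.26. *Spic*, which defines red pulp macrophages, had 7.43 ± 0.28 on the DT and 7.92 ± 0.61 on the PBS arrays (adjusted p = 0.327).

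Some rises were not genes of mature monocytes against cMoPs. *F13a1*, *Ly86*, *Aoah*, which inactivates endotoxin, *Tifab*, *Hspa1a*, a heat shock protein, *Plxdc1*, *Apba1* and *Fkbp1b* rose by between 2.44 and 3.10 and did not pass the test between cMoPs and monocytes. *Tifab* was at 10.18 ± 0.07 on the DT and 7.67 ± 0.38 on the PBS arrays, at 9.73 on the G32 PBS array and at 10.10 ± 0.13 in cMoPs. *Ly6c2* was at 12.999 ± 0.02 in cMoPs, as high as on the DT arrays. In these genes the JS PBS arrays lay below DT-Ly6C+ monocytes and cMoPs alike. *Igh-VS107*, an immunoglobulin heavy variable segment, rose by 2.57 and did not pass the cMoP test either, but its cMoP level of 6.66 ± 1.03 was not above its PBS level of 7.11 ± 1.25. It differed widely between the G32 arrays, at 6.46 (DT) and 10.29 (PBS).

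The pair of G32 arrays gave a second DT minus PBS difference, with 1 array each and hence no test. Over the 2279 rises its median was 0.04, against 0.79 on the JS arrays, and it was above 0 in 54.1% of them. Over the 2404 falls its median was 0.15, against -0.95, and it was below 0 in 36.5%. In 1 limma fit of all 17 arrays the JS difference differed from the G32 difference in 8.3% of all genes. The level on the G32 PBS array was closer to the JS DT mean than to the JS PBS mean in 1751 of the rises and 2198 of the falls. For the fallen genes higher in cMoPs the count was 1391 of 1442, and for the risen genes lower in cMoPs 971 of 1114. Over all genes it was 2340 of 2681 higher in cMoPs, 1732 of 2225 lower and 10092 of 17274 that did not pass. The G32 PBS array thus lay closer to the JS DT mean in most genes of each of these classes. The median differences on the G32 arrays were thus far smaller, and for the falls of the opposite sign. Lists with many rises had small G32 medians as well. The G32 median was 0.08 for Toll-like receptor and NF-kB signaling genes (0.60 on the JS arrays) and 0.08 for nucleic acid sensing genes (1.06). For interferon-stimulated genes it was 0.02 (1.24), for monocyte transcription factors 0.11 (0.77) and for matrix and coagulation genes 0.05 (0.66).

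A difference over 1 in the same direction was present on the G32 arrays for 62 of the rises (2.72%, against 1.88% of all genes) and for 12 of the falls (0.499%, against 0.478%), shares near those over all genes. Leaving aside predicted genes, 34 rises and 5 falls were over 1 in both. They were picked after their values were seen. *Fabp4* was at 6.83 (DT) and 5.43 (PBS) on the G32 arrays, *Lpl* at 9.52 and 7.86, *Pparg* at 7.85 and 6.31, *Vcan* at 9.94 and 8.82, *Il6* at 8.06 and 6.58, *Cfb* at 8.70 and 7.398, *Cxcl9* at 8.07 and 6.71, and *Ly96* at 8.92 and 7.56. The rise of *Cxcl9* on the JS arrays was lost on leaving out DT array 1, PBS array 1 or PBS array 3 (adjusted p = 0.0528 to 0.0874). The falls were *Cstdc6*, *Syne1*, *Zc3hav1l*, *Gimap3* and *Camk2a*.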

How the data were processed

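Sorted cells were profiled on Affymetrix MoGene 2.0 arrays, whose RNA came from the groups given above. The authors processed them with RMA of the oligo package (version not given in the sources used here), that is background correction, quantile normalization and probe set summary, and the deposited log2 values were used as they are. Array medians lay between 5.313 and 5.529. The authors' later restriction to shared probe sets and ComBat step are not in these values. Of 41345 probe sets, 25341 are in the array annotation, 23521 with 1 symbol and 1820 with several, and 16004 are unannotated. Each of 22180 genes was read from its single-symbol probe set with the highest mean over all 17 arrays, of which 21994 matched RefSeq by identifier. No dim gene was removed and no background probe was used, so a gene near the floor cannot be told from an absent one.

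limma 3.58.1 in R 4.3.3 fitted the 9 JS arrays with a term per group (6 residual degrees of freedom), and the 8 G32 arrays likewise for cMoPs against the mean of the DT and PBS arrays (4). Benjamini-Hochberg adjustment ran over all genes tested, with a threshold of 0.05. The number of arrays limits the precision. Members, lists and tests were chosen with earlier results of these data known. The rule for named genes took the 15 largest rises and falls without overlap, the cell type markers and up to 4 rises and falls per list. It also took the 10 largest falls not higher and rises not lower in cMoPs. Not all of these genes are printed. Further list members were named for their role after their values were seen. In simulated data for this comparison, with 200 of 22180 genes changed by 1 or 2 on the log2 scale, 98 changed by 2 and 67 changed by 1 were called, with 5 false calls. Alternatives were the 6 arrays alone, all 17 arrays with a term per group, both series with a series term, a block by array number, a filter on dim genes (15526 left), another choice or the mean of probe sets, array weights, a trended and robust fit, quantile normalization, a log2 difference over 1, and leaving out each array. The test of the JS against the G32 difference in 1 fit of 17 arrays (10 residual degrees of freedom) was added after the data were seen. Promoters came from RefSeq (GRCm38.p6).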

Additional observations from a re-analysis of the deposited data

Results flagged for a closer look

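The DT minus PBS difference was not the same on the JS and the G32 arrays. Tested in 1 limma fit of 17 arrays, the JS difference differed from the G32 difference in 1841 genes (8.3% of all genes), of which 598 had risen and 1023 had fallen on the JS arrays. The G32 series has 1 DT and 1 PBS array, so its spread is taken from the other groups. A difference between the series rests on those 2 arrays and cannot be told apart from how they lie. The JS difference by which genes were called also enters this test, so called genes were favored to pass. The JS difference minus the G32 difference was 3.94 (standard error 0.34, adjusted p = 4.15e-06) for *Klf4* and 3.75 (standard error 0.39, adjusted p = 2.2e-05) for *Cx3cr1*. For *Fn1* it was 4.43 (standard error 0.35, adjusted p = 2.02e-06) and for *Thbs1* 6.26 (standard error 0.53, adjusted p = 3.23e-06). It was -5.43 (standard error 0.34, adjusted p = 2.14e-07) for *Mpo* and -4.24 (standard error 0.47, adjusted p = 3.8e-05) for *Ly6g*. On the G32 arrays *Thbs1* was at 11.62 (DT) and 11.98 (PBS), *Mpo* at 6.58 and 6.82, and *Fn1* at 12.20 and 12.39.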

How the results depend on the processing

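The counts of 2279 rises and 2404 falls became 1497 and 1273 with both array series and a series term, and 805 and 1106 where the log2 difference also had to be over 1. Leaving out each array in turn gave 1805 to 1990 rises and 1984 to 2206 falls. The deviations of same-numbered DT and PBS arrays correlated at 0.003, 0.019 and 0.09, so no clear pairing showed. The labels do not say whether same-numbered arrays were paired. With a replicate block 2208 genes rose and 2363 fell. The other settings kept both counts within 1.5 times. With Ly6C+ monocytes taken as the PBS G32 or the DT G32 array alone, or with a log2 difference over 1 in place of the test, 44.8% to 55.5% of the falls were higher (6.76% to 11.1% of all genes) and 36.1% to 38.7% of the rises lower in cMoPs (5.51% to 8.23% of all genes). No named gene changed direction with a call under any alternative run, and 58 of 250 lost their call with both array series and a series term. Array number and signal near the floor limit the precision, and a dim gene's difference is understated.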
